A study of Mus musculus with 16 samples.

Results

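Periostin (Postn), fibronectin (Fn1), tenascin-C (Tnc), thrombospondins 1, 2 and 4 (Thbs1, Thbs2, Thbs4), the lysyl oxidases Lox, Loxl1 and Loxl2 and the protease inhibitor Timp1 were followed across 16 mouse heart samples by bulk RNA sequencing. The 10 genes were taken by symbol from the deposited tables of 24371 genes. Every one of them was found once and passed the filter on low counts, which left 14607 genes for testing. The series title concerns succinate signalling through GPR91 in cardiomyocytes in heart failure with preserved ejection fraction (HFpEF).

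All 16 hearts came from mice with both copies of the succinate receptor gene Gpr91 (current symbol Sucnr1) floxed, and all carried an HFpEF model made over 12 weeks with L-NAME, which blocks nitric oxide synthases, and a fat-rich diet. The 4 groups of 4 were Myh6Cre Gpr91fl/fl mice given succinate, Myh6Cre Gpr91fl/fl mice without succinate, Gpr91fl/fl mice given succinate and Gpr91fl/fl mice without succinate. They are called Cre and floxed hearts, with and without succinate. The Myh6 promoter drives Cre in cardiomyocytes, so other heart cells should keep the floxed receptor gene. No hearts without the HFpEF model and none with the Cre transgene but no floxed alleles were analysed here. Age, sex and succinate dose were not given in the sources used here. Nothing in the labels ties each sample to its own animal, and the p-values below therefore speak of the scatter among these samples, part of which may be technical.

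Matricellular proteins are secreted into the extracellular matrix, where they tune how cells attach, migrate and receive growth factors more than they bear load. Many of them are scarce in the healthy adult heart and come on with injury, overload or fibroblast activation. Lysyl oxidases act on collagen and elastin after secretion, oxidising lysine side chains so that the fibres become covalently crosslinked and stiffer. Timp1 inhibits the matrix metalloproteinases that cut these fibres. The matrix genes of the heart are mainly made by fibroblasts, while thrombospondins also come from vascular cells, platelets and stressed cardiomyocytes.

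The promoter sequences of 4 genes are shown because these genes carry the contrasts described below. Timp1 and Tnc passed a test, Thbs4 varied most closely with Timp1, and Thbs2 went the other way. Each line gives the 250 bases before the annotated start, 5′ to 3′ on the gene's strand, from RefSeq (GRCm38.p6), the table of which matched 6 of the 10 genes; Fn1, Thbs1, Loxl1 and Loxl2 were not matched. Where a gene had more than 1 start, the most downstream was used. Capitals mark matches to the TEAD motif CATTCC or the TATA motif TATAAA on either strand.
Timp1 (chrX:20869916-20870165, plus strand): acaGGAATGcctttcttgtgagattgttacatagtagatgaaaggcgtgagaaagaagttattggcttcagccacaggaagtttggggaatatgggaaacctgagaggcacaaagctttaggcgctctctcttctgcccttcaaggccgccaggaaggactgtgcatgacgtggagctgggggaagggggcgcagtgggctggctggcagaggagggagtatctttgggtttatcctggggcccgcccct
Tnc (chr4:64046937-64047186, minus strand): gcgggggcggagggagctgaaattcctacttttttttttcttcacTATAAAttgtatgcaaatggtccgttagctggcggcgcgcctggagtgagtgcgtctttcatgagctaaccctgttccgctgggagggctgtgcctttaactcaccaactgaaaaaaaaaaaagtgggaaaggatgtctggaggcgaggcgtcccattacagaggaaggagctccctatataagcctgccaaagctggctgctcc
Thbs4 (chr13:92794819-92795068, minus strand): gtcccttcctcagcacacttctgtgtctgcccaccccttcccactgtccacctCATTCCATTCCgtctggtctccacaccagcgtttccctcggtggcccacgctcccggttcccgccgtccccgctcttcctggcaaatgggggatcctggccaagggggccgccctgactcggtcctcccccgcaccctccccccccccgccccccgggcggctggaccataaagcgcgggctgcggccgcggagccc
Thbs2 (chr17:14694263-14694512, minus strand): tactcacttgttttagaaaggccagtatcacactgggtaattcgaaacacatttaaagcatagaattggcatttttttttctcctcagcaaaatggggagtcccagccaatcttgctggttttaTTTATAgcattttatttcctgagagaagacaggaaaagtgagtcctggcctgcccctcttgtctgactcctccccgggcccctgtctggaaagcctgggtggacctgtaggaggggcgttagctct
The Timp1 window held 1 TEAD match, on the opposite strand, beginning 247 bases before the start. The Thbs4 window held 2 TEAD matches that overlap each other, beginning 197 and 192 bases before the start. The capitals in the Tnc and Thbs2 windows are TATA matches, 205 and 126 bases before the start. Such matches are common, since 12.6% of 32851 promoter windows of the same length held the TEAD motif and 12.4% held the TATA motif. The AP-1 motif TGANTCA (6.75% of windows), the STAT motif TTCNNNGAA (7.02%) and the CArG box (1.47%) were searched on both strands as well and were not marked in these 4 windows, which says only that these letters are absent there.

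Library totals were 27835235 to 34700996 counts. With 3 counts as a floor, the lowest level told from 0 was 0.0865 to 0.108 CPM (read counts scaled to a fixed library total), which covers counting error only. Sucnr1 had 2 to 13 and 2 to 21 counts in Cre hearts with and without succinate, against 0 to 7 and 0 to 4 in floxed hearts with and without it, so the deletion could not be checked at this depth and the genotypes are used as labelled. One library stood apart for the genes described here. Replicate 1 of the Cre hearts without succinate had the highest level of the 16 libraries for 6 of the 10 genes (Fn1, Tnc, Thbs4, Loxl1, Loxl2 and Timp1) and the lowest for Thbs2. In that library the activated fibroblast markers, a list in which Acta2 had the highest counts, summed to 382 CPM. Its atrial markers summed to 1680 CPM, and its summed endothelial markers were the lowest of its group at 1421 CPM. Its mean correlation with the other libraries of its group was 0.979, and the other 15 libraries had 0.980 to 0.986. Results that rest on it are given with and without it.

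The level per unit of gene length, in the authors' FPKM (read counts scaled to library total and gene length), ordered the 10 genes. Loxl1, which crosslinks elastic fibres, had the highest median over the 16 libraries at 14.7 FPKM. Postn, a marker of activated fibroblasts that binds collagen, followed at 12.4 FPKM. Thbs2 had a median of 7.46 FPKM and Fn1 had 6.41 FPKM, and these 2 overlapped in 3 of the 4 groups. A lower band held Thbs1 (2.65 FPKM), Loxl2 (2.37 FPKM), Timp1 (1.94 FPKM), Thbs4 (1.44 FPKM) and Lox (1.28 FPKM), whose neighbours in the order overlapped in every group. Tnc was the lowest in every group, with a median of 0.127 FPKM. The first place changed with genotype label. In Cre hearts Postn led Loxl1 by mean FPKM, with overlapping values (18.4 against 15.9 FPKM with succinate and 18.4 against 17.2 FPKM without). In floxed hearts Loxl1 led Postn, at 12.0 against 7.82 FPKM with succinate, where the values overlapped, and 14.9 against 11.4 FPKM without succinate, where they did not.

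The genes also differed in how widely they varied. The highest library exceeded the lowest 38.6-fold for both Timp1 and Tnc, 12.1-fold for Thbs1, 6.30-fold for Thbs4 and 6.16-fold for Postn. The other 5 genes varied less, from 2.08-fold for Fn1 to 2.86-fold for Lox. The 2 widest genes were also low in counts, with 13 to 590 counts per library for Timp1 and 6 to 329 for Tnc.

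The 10 genes lie on 10 different chromosomes, so none shares its position with another. Some share it with other genes, and whether the counting used strand was not given in the sources used here. In the GENCODE annotation of GRCm38, Timp1 (chromosome X) lies inside an intron of Syn1 on the opposite strand, with no shared exon, and Syn1 had 2 to 18 counts per library. Exons of Fn1 and Loxl2 overlap those of the antisense genes Apol7d and Gm27177, which had at most 3 and 4 counts. Exons of Tnc, Thbs1 and Lox overlap the noncoding genes 8030451A03Rik, Gm29233 and AC161119.1, which were not analysed here, so reads from each pair cannot be told apart.

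**Figure D1:**
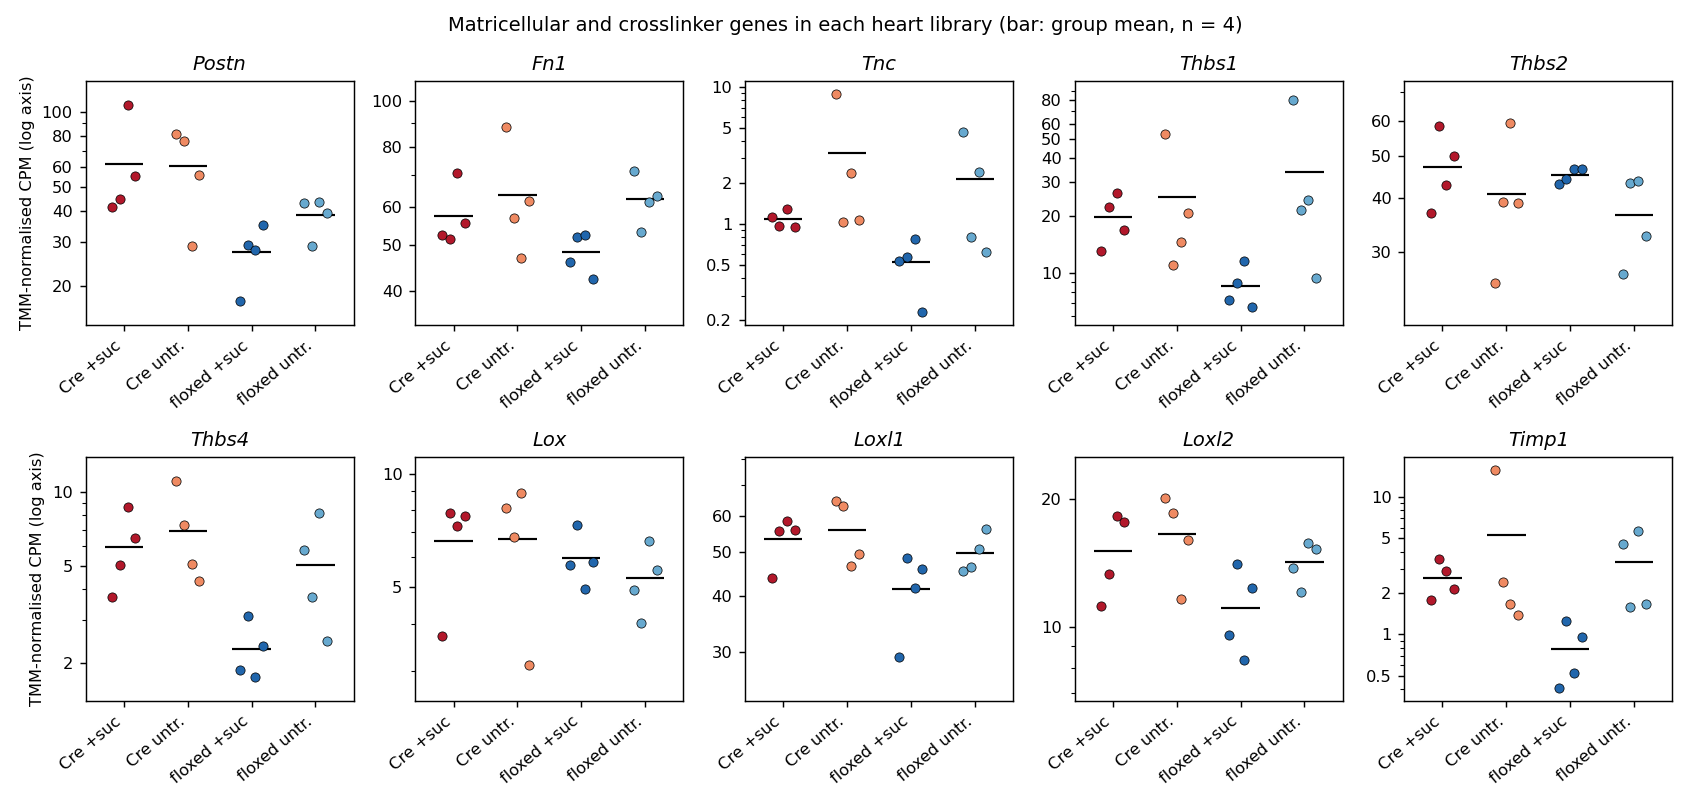
TMM-normalised CPM of the 10 genes on log axes, 1 point per library and a bar at the mean of each group of 4 (untr. is without succinate, +suc is with it). Timp1 lies between 0.408 and 1.26 CPM in floxed hearts given succinate, below every other library, and replicate 1 of the Cre hearts without succinate stands above the rest of its group for Timp1 and Tnc.

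Succinate was first compared within floxed hearts. None of the 10 genes passed edgeR's quasi-likelihood test at an adjusted p of 0.05, where 13.1% of all tested genes did (5.64% lower and 7.48% higher). That balance differed between settings. By edgeR 1093 of 1917 calls were higher with succinate, and 1020 of 1895 with RLE size factors in place of TMM. With limma the calls that were higher numbered 775 of 1643 on log2(FPKM + 1) and 784 of 1708 on log2(FPKM + 0.1). With a mean of at least 1 FPKM they numbered 693 of 1600. The limma runs changed the test and the scaling together, and the last also the filter, so the cause was not tested. At an unadjusted p under 0.05 there were 5 (Tnc, Thbs1, Thbs4, Timp1 and Fn1), against 28.4% of all tested genes. DESeq2 called 4 of the 10, among 2531 genes called in all, and limma voom called 2, among 2925. Here and below, limma voom was run with sample quality weights, which can give an outlying library less weight. The median log2 difference of the 10 genes was -0.43, beside 0.00 over all genes tested, and 8 of the 10 estimates were negative. In bulk RNA, fewer cells of a type and less RNA per cell cannot be told apart.

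Timp1 had the largest estimate. In floxed hearts it had 0.408, 1.26, 0.521 and 0.949 CPM with succinate in replicates 1 to 4, against 4.52, 1.59, 5.66 and 1.66 CPM without it. All 4 succinate libraries lay below all 4 without succinate, and the untreated libraries formed a high pair and a low pair. The group means were 0.784 ± 0.392 CPM and 3.36 ± 2.05 CPM (SD, n = 4 each). The log2 difference was -2.10 ± 0.78 (SE) with an adjusted p of 0.0858 by edgeR.

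Tnc, an anti-adhesive glycoprotein of injured tissue, had 0.534, 0.577, 0.782 and 0.228 CPM in floxed hearts with succinate, against 4.66, 0.797, 2.39 and 0.624 CPM without it. In 3 of the 4 succinate libraries it was below every untreated library, and the lowest value rested on 6 counts. The log2 difference was -1.97 ± 0.74, and edgeR's adjusted p was 0.0869.

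Thbs1, which can activate latent TGF-beta and binds the receptors CD36 and CD47, had 7.29, 8.89, 11.6 and 6.68 CPM in floxed hearts with succinate, against 80.8, 21.3, 24.1 and 9.46 CPM without it. Again 3 of the 4 succinate libraries were below every untreated one, and 1 untreated library stood well above the others. The log2 difference was -1.97 ± 0.62, with an adjusted p of 0.0538 by edgeR, just outside the threshold. Thbs4, which in mice is induced in overloaded hearts and takes part in the endoplasmic reticulum stress response, had 1.89, 3.12, 1.76 and 2.35 CPM with succinate, against 5.79, 3.71, 8.19 and 2.46 CPM without it. Its log2 difference was -1.14 ± 0.38 and edgeR's adjusted p was 0.0546, with 3 of the 4 succinate libraries below all untreated ones.

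Fn1, the scaffold on which collagen and other matrix proteins assemble, differed by less but with tighter groups. It had 46.1, 51.9, 52.5 and 42.4 CPM in floxed hearts with succinate, against 71.5, 53.1, 61.6 and 63.3 CPM without it. The groups did not overlap, and the log2 difference was -0.37 ± 0.16 (adjusted p of 0.125 by edgeR). Fn1 and Timp1 were the 2 of the 10 genes whose succinate libraries all lay below the untreated ones, a pattern found in 7.65% of all tested genes.

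Postn had 17.3, 29.2, 27.8 and 35.2 CPM with succinate in floxed hearts, against 43.1, 28.8, 43.5 and 39.1 CPM without it, and the groups overlapped (log2 difference -0.50 ± 0.34, adjusted p of 0.370 by edgeR). Thbs2, a relative of Thbs1 needed in mice for normal collagen fibrils, was the only thrombospondin of the 3 with a positive estimate here. It had 43.0, 44.3, 46.5 and 46.7 CPM with succinate and 26.7, 43.4, 43.8 and 32.6 CPM without it, so that 3 of 4 succinate libraries lay above all untreated ones. Its log2 difference was 0.30 ± 0.21, and edgeR's adjusted p was 0.370.

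The crosslinking enzymes came next. Lox had 4.95 to 7.33 CPM in floxed hearts with succinate and 4.02 to 6.62 CPM without it, a log2 difference of 0.18 with a 95% interval of -0.43 to 0.78. Loxl1 had 29.3 to 48.5 CPM with succinate and 45.3 to 56.1 CPM without it, a log2 difference of -0.26 with an interval of -0.58 to 0.05. Loxl2, which crosslinks collagen and is made by activated fibroblasts, had 8.37 to 14.1 CPM with succinate and 12.1 to 15.8 CPM without it, a log2 difference of -0.36 with an interval of -0.78 to 0.06. The groups overlapped for each of the 3 enzymes, and edgeR's adjusted p-values were 0.716, 0.245 and 0.226 for Lox, Loxl1 and Loxl2.

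The count in floxed hearts turned on 1 library outside the comparison, which enters through the shared estimate of spread. Without replicate 1 of the Cre hearts without succinate, 5 of the 10 genes passed edgeR's test with hardly moved estimates. The adjusted p-values were then 0.00506 for Timp1 (log2 difference -2.11), 0.0236 for Tnc (-1.98), 0.0259 for Thbs1 (-1.98), 0.0343 for Thbs4 (-1.15) and 0.0430 for Fn1 (-0.38). The share of all tested genes passing in that fit is not given here, so the 5 have no background beside them. The closing section gives the range of calls over all genes with each library left out. Fitted on the 8 floxed libraries alone, edgeR called 3 of the 10, among 1636 genes called in all. These were Timp1 (adjusted p = 0.0184), Fn1 (0.0437) and Thbs4 (0.0470). Thbs1 also passed without untreated floxed replicate 4 (0.0285) or untreated Cre replicate 2 (0.0435). Thbs4 passed in addition when untreated floxed replicate 2 (0.0446) or 4 (0.0235), succinate floxed replicate 2 (0.0480), untreated Cre replicate 4 (0.0482) or succinate Cre replicate 3 (0.0474) was left out. Without replicate 1 of the untreated floxed hearts, the highest library for Thbs1, the log2 difference of Tnc was -1.25 and none of the 10 genes passed.

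In Cre hearts, none of the 10 genes passed the succinate test by edgeR, where 0.917% of all tested genes did. Neither DESeq2 nor limma voom called one of the 10, among 483 and 150 genes called in all. At an unadjusted p under 0.05 there was 1 (Tnc), against 14.1% of all tested genes. The median log2 difference was -0.14. No gene of the 10 had groups that did not overlap, where 8.19% of all tested genes did. Tnc had 1.12, 0.965, 1.28 and 0.946 CPM with succinate, against 8.78, 1.02, 2.34 and 1.07 CPM without it, a log2 difference of -1.63 ± 0.67 with an adjusted p of 0.283 by edgeR. The high mean without succinate came mostly from replicate 1, and without that library the log2 difference was -0.47.

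Timp1 had 1.77, 3.55, 2.91 and 2.13 CPM in Cre hearts with succinate, against 15.8, 2.40, 1.68 and 1.39 CPM without it. The log2 difference was -1.04 ± 0.68 (adjusted p of 0.527 by edgeR), but the ratio of the group medians was 1.24. Leaving out the high library, replicate 1 without succinate, gave a log2 difference of 0.49. Thbs1 had 13.1, 22.2, 26.4 and 16.8 CPM with succinate, against 53.7, 11.1, 14.6 and 20.6 CPM without it. Its log2 difference was -0.35 ± 0.59 with that library and 0.33 without it, so the sign of Timp1 and Thbs1 in Cre hearts depended on a single library. Thbs4 had 3.74, 5.01, 8.68 and 6.45 CPM with succinate, against 11.1, 7.30, 5.06 and 4.31 CPM without it, and its log2 difference was -0.22 with that library and 0.09 without it. Postn had 41.6, 44.5, 107 and 55.1 CPM with succinate, against 81.3, 76.6, 28.8 and 55.8 CPM without it, a log2 difference of 0.03 with a 95% interval of -0.70 to 0.76.

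The remaining genes of Cre hearts overlapped between the groups. Fn1 had 51.4 to 70.6 CPM with succinate and 47.0 to 88.0 CPM without it, and Thbs2 had 36.9 to 58.6 CPM with succinate and 25.5 to 59.4 CPM without it. Their log2 differences were -0.14 (interval -0.48 to 0.20) and 0.21 (-0.24 to 0.66). Lox, Loxl1 and Loxl2 had log2 differences of -0.02, -0.07 and -0.13, and the intervals ran from -0.61 to 0.57, from -0.38 to 0.25 and from -0.54 to 0.27.

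Averaged over both genotypes, 8 hearts against 8, Tnc and Timp1 fell with succinate by edgeR, 2 of 10, where 19.0% of all tested genes passed and 8.45% passed as lower (10.6% as higher), so the share was close to the background. Of the calls over all genes, 1547 of 2781 were higher with succinate by edgeR, against 1108 of 2527 with limma on log2(FPKM + 1). At an unadjusted p under 0.05 there were 5, against 32.9% of all tested genes. DESeq2 called 4 of the 10, among 3262 genes called in all, and limma voom called 0, among 3306. The log2 difference of Tnc was -1.80 ± 0.50 with an adjusted p of 0.0194 by edgeR, and that of Timp1 was -1.57 ± 0.52 with an adjusted p of 0.0451. Thbs1 (-1.16 ± 0.43, adjusted p = 0.0770 by edgeR), Thbs4 (-0.68 ± 0.26, 0.0747) and Fn1 (-0.26 ± 0.11, 0.112) did not pass. The 8 hearts with succinate had 0.228 to 1.28 CPM of Tnc, and the 8 without had 0.624 to 8.78 CPM, so the ranges overlapped.

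Tnc passed with each library left out in turn, at log2 differences of -1.96 to -1.22, the smallest of them without replicate 1 of the untreated Cre hearts. With replicate 1 of both untreated groups left out it did not pass (-0.86, adjusted p = 0.104 by edgeR). Timp1 passed in 6 of the 16 such fits. It missed the threshold when replicate 1 of the untreated Cre hearts was left out (-0.81, adjusted p = 0.0944), without any 1 of the 4 Cre libraries given succinate (0.0546 to 0.0868), without succinate floxed replicate 1, 3 or 4 (0.0669 to 0.0967) or without untreated floxed replicate 1 or 3 (0.0800 and 0.0905). Leaving out 1 library also brought 4 other genes past the threshold by edgeR. Thbs1 passed without untreated floxed replicate 4 (adjusted p = 0.0378) or untreated Cre replicate 2 (0.0477). Thbs4 passed without untreated floxed replicate 4 (0.0311), untreated Cre replicate 4 (0.0467) or succinate Cre replicate 3 (0.0418). Fn1 passed as lower without untreated Cre replicate 3 (0.0358) or succinate Cre replicate 3 (0.0471), and Thbs2 as higher without untreated Cre replicate 3 (0.0474). Neither Tnc nor Timp1 passed with limma voom with sample weights (method and weighting changed together), without the filter on low counts, or with limma on the authors' FPKM with a pseudocount of 1 or 0.1.

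**Figure D2:**
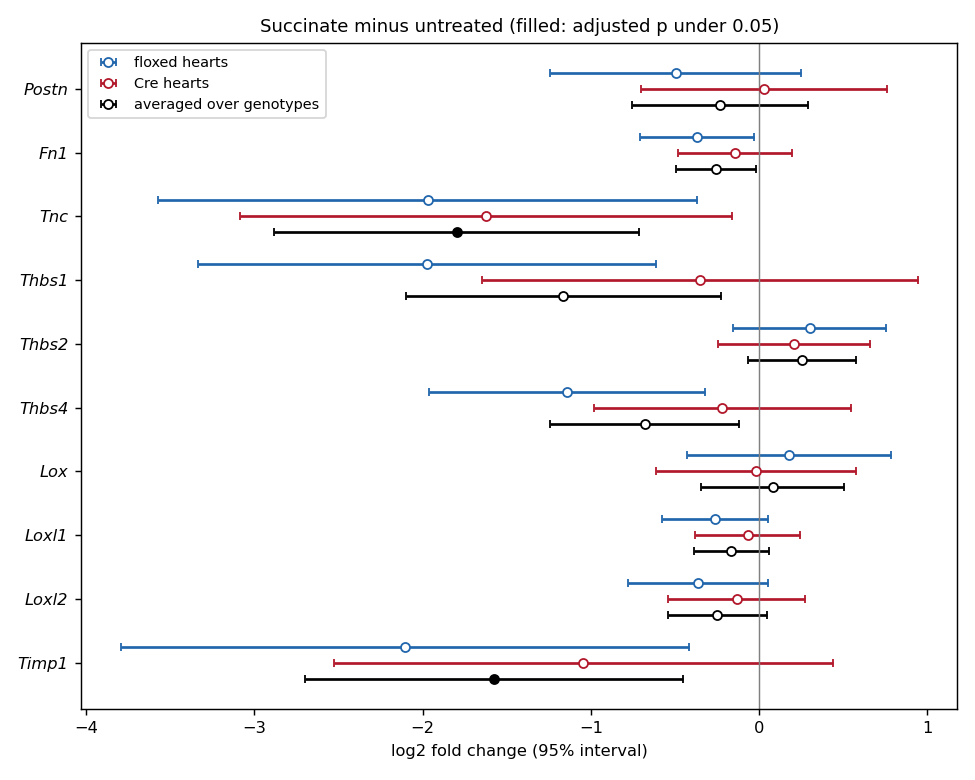
Log2 difference, hearts with succinate minus hearts without, for the 10 genes, with approximate 95% intervals derived from edgeR's test, in floxed hearts (blue), in Cre hearts (red) and averaged over both (black). Filled points passed at an adjusted p of 0.05, which only Tnc and Timp1 did, in the average, and the intervals of these genes and of Thbs1 are the widest.

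The genotypes were compared among hearts given succinate. The point estimates of all 10 genes were positive, with a median log2 difference of 0.73 beside -0.01 over all genes tested. Markers of general fibroblasts and macrophages leaned the same way and those of cardiomyocytes the other way, as given with the cell type markers. None of the 10 genes passed edgeR's test, where 0.691% of all tested genes did. At an unadjusted p under 0.05 there were 5 (Thbs4, Postn, Loxl1, Loxl2 and Timp1), against 11.1% of all tested genes. DESeq2 called 1 of the 10 (Thbs4, adjusted p = 0.00911), among 307 genes called in all, and limma voom called 0, among 190. These estimates share the floxed succinate libraries with the comparison within floxed hearts, so the 2 sets are not independent.

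For 5 of the 10 genes every Cre library given succinate lay above every floxed library given succinate, namely Postn, Tnc, Thbs1, Thbs4 and Timp1, a pattern found in 3.96% of all tested genes. Thbs4 averaged 5.97 ± 2.12 CPM in Cre hearts and 2.28 ± 0.617 CPM in floxed hearts (SD, n = 4 each), with a log2 difference of 1.39 ± 0.37 and an adjusted p of 0.116 by edgeR. Postn averaged 62.0 ± 30.4 CPM in Cre hearts and 27.4 ± 7.46 CPM in floxed hearts, with a log2 difference of 1.18 ± 0.34 and an adjusted p of 0.158 by edgeR. Timp1 averaged 2.59 ± 0.797 CPM in Cre hearts and 0.784 ± 0.392 CPM in floxed hearts. Its log2 difference of 1.73 ± 0.78 was the largest of the 10, with an adjusted p of 0.430 by edgeR.

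Thbs1 averaged 19.6 ± 5.86 CPM in Cre hearts and 8.61 ± 2.18 CPM in floxed hearts given succinate, and Tnc averaged 1.08 ± 0.156 CPM and 0.530 ± 0.229 CPM in the same groups. Their log2 differences were 1.19 ± 0.62 and 1.003 ± 0.755, with adjusted p-values of 0.516 and 0.701 by edgeR. Loxl1 and Loxl2 had log2 differences of 0.37 ± 0.14 and 0.45 ± 0.19 (adjusted p of 0.323 and 0.386 by edgeR). Fn1, Lox and Thbs2 overlapped between the genotypes, at log2 differences of 0.25, 0.16 and 0.06. When edgeR was fitted on these 8 libraries alone, Thbs1, Thbs4 and Timp1 passed (adjusted p of 0.0281, 0.0298 and 0.0416), among 142 genes called in all.

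Without succinate, none of the 10 genes passed between the genotypes by edgeR, DESeq2 or limma voom, and none had an unadjusted p under 0.05, where 0.110% of all tested genes passed edgeR's test and 8.75% had an unadjusted p under 0.05. The median log2 difference was 0.29, and the groups overlapped for each gene, where 4.85% of all tested genes had groups that did not. Postn had the smallest p, with 81.3, 76.6, 28.8 and 55.8 CPM in Cre hearts, against 43.1, 28.8, 43.5 and 39.1 CPM in floxed hearts, so that 3 of the 4 Cre libraries were above every floxed one and the fourth was level with the lowest. Its log2 difference was 0.65 ± 0.34 (adjusted p of 0.614 by edgeR). Timp1 was 0.67 ± 0.67 higher on the log2 scale by the fit, but replicate 1 of the Cre hearts carried this, and without that library the log2 difference was -0.88. Tnc likewise gave 0.66 with that library and -0.51 without it.

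Averaged over succinate, 8 Cre hearts against 8 floxed hearts, no gene of the 10 passed by edgeR or limma voom, where 1.88% of all tested genes passed edgeR's test. There were 5 at an unadjusted p under 0.05, against 14.1% of all tested genes. DESeq2 called Postn (adjusted p = 0.0165) and Thbs4 (0.0102), among 594 genes called in all. By edgeR the log2 difference of Postn was 0.92 ± 0.24 with an adjusted p of 0.0704, and that of Thbs4 was 0.93 ± 0.26 with an adjusted p of 0.0785. Postn passed without replicate 3 of the untreated Cre hearts (adjusted p = 0.0160) and Thbs4 without replicate 3 of the untreated floxed hearts (0.0347). Timp1 gave 1.204 ± 0.515 (adjusted p of 0.303 by edgeR), or 0.42 with the high library (untreated Cre replicate 1) left out.

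**Figure D3:**
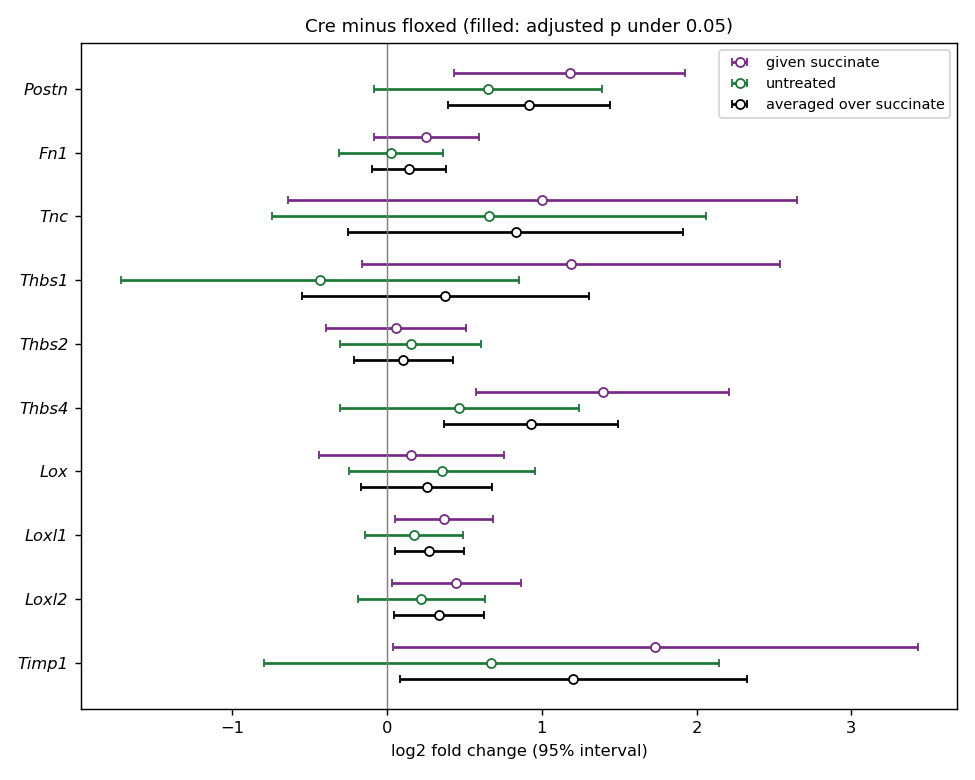
Log2 difference, Cre minus floxed hearts, for the 10 genes, with approximate 95% intervals derived from edgeR's test, among hearts given succinate (purple), hearts without it (green) and averaged over both (black). No gene passed at an adjusted p of 0.05, and with succinate all 10 estimates lie above 0.

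Whether succinate acted differently in the genotypes was tested by the interaction. No gene of the 14607 passed it by edgeR, and none of the 10 had an unadjusted p under 0.05, which 4.85% of all tested genes did; DESeq2 called 3 genes, none of them here, and limma voom 0. The log2 interaction (succinate difference in Cre hearts minus that in floxed hearts) was 1.62 ± 0.85 for Thbs1, 1.06 ± 1.03 for Timp1 and 0.93 ± 0.51 for Thbs4, each with an adjusted p of at least 0.970 by edgeR. The interval for Thbs1 ran from -0.24 to 3.48, a range that holds both 0 and gaps wider than any single succinate difference above. For Tnc the interaction was 0.34 with an interval of -1.80 to 2.49. A difference between the genotypes in the response of these genes to succinate was therefore not shown.

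Across the 16 libraries the genes varied in company. Correlations here are of log2 CPM and describe these libraries, which share treatment groups and 1 library that stood apart. Timp1 went with Thbs4 (r = 0.88) and Tnc (0.81), and Tnc went with Thbs1 (0.86). Another set was Postn, Loxl1 and Loxl2, with r of 0.85 for Postn and Loxl2 and 0.84 for both Postn and Loxl1 and Loxl1 and Loxl2. The sets differed from each other in that Tnc and Loxl1 had r = 0.36, and -0.02 once the group means were removed. Thbs4 had high values with both sets (0.80 with Postn and 0.81 with Loxl2).

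Thbs2 ran against the rest, with negative r for 8 of the other 9 genes, lowest with Fn1 (-0.75). Leaving out untreated Cre replicate 1 gave -0.62 for that pair and values near 0 for Thbs2 with Thbs4 (0.01) and Loxl1 (0.03). Lox followed none of the others closely, with a highest r of 0.41 with Thbs4. Lox and Loxl1, which act on the same kinds of substrate, had r = 0.39.

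**Figure D4:**
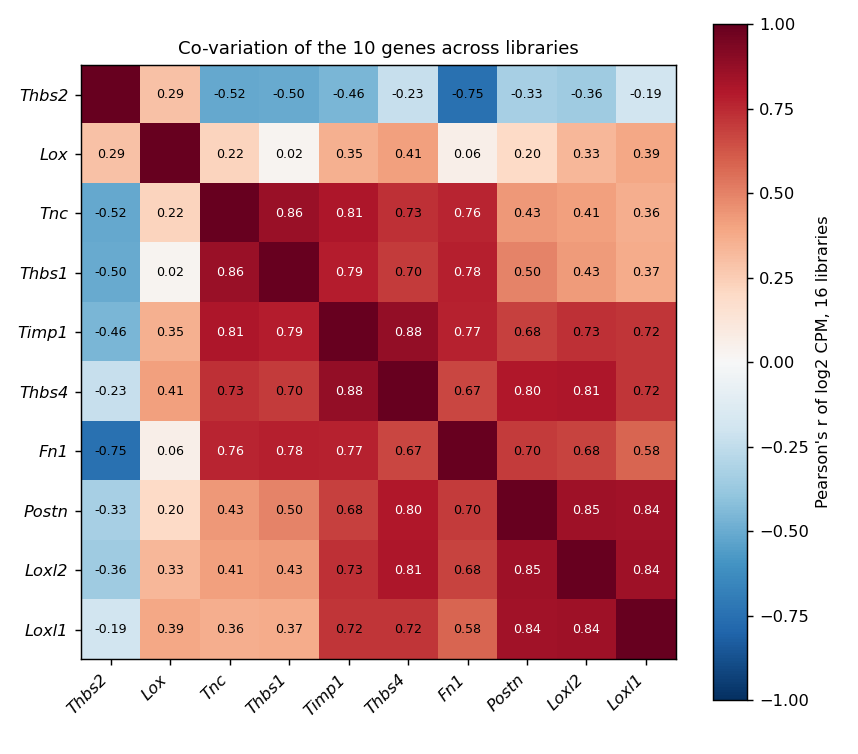
Pearson's r between the log2 CPM of each pair of the 10 genes over 16 libraries, from blue (negative) to red (positive). Tnc, Thbs1, Timp1 and Thbs4 form a block with r from 0.70 to 0.88, Postn, Loxl2 and Loxl1 form another at 0.84 to 0.85, and Thbs2 is negative with each gene but Lox.

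Beyond the 10, the genes of most similar pattern were sought by Pearson's r of log2 CPM over the 16 libraries, among genes whose log2 CPM averaged 1 or more. Genes without a plain symbol, such as those with Rik or Gm names, were left out of this search. Postn was nearest to the proteoglycan gene Bgn (0.95), the collagen gene Col8a1 (0.94) and Serpinf1 (0.94). Loxl1 and Loxl2 both had Pcolce, an enhancer of procollagen processing, among their 3 nearest (0.92 and 0.93), with Slc9a9 (0.94) and Ctsz (0.92) for Loxl1 and Tmem119 (0.94) and Rab31 (0.93) for Loxl2. Thbs4 was nearest to Vcan (0.93), which encodes the proteoglycan versican, to its relative Comp (0.91) and to C4b (0.90). Timp1 was nearest to the macrophage and lysosome gene Cd68 (0.93), Vcan (0.92) and Tmed9 (0.92).

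Tnc was nearest to Stat3 (0.93), Mlec (0.92) and Prkar1a (0.91), and Thbs1 to Olfml2b (0.88), Gpnmb (0.88) and Srebf2 (0.87), so neither had a matrix structural gene among its nearest 3. Fn1 was nearest to Tgfb3 (0.89), Adamts4 (0.87) and Col18a1 (0.87), and Thbs2 to Inmt (0.88), the aggrecan-cleaving protease gene Adamts5 (0.84) and Dpep1 (0.82). Lox had lower nearest values than the others, with Atg3 (0.72), Chmp1b (0.71) and Riok2 (0.70).

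Some cell type markers moved with these genes and others against them. The cardiomyocyte markers had a negative r with each gene but Thbs2 (0.61), from -0.06 for Lox to -0.80 for Fn1. The endothelial markers had -0.64 for Tnc and -0.51 for Thbs1, against 0.01 for Loxl1 and 0.28 for Thbs2. The macrophage markers ran from -0.24 for Thbs2 to 0.78 for Loxl1. Over the 16 libraries the 10 general fibroblast markers followed Loxl1 (r = 0.92), Postn (0.87) and Loxl2 (0.81) more closely than Tnc (0.22) or Thbs1 (0.27). The 8 mural cell markers went the other way round, with 0.61 for Tnc, 0.68 for Thbs1 and 0.66 for Timp1, against 0.11 for Loxl1 and 0.25 for Postn and Loxl2. With the group means removed, the mural values were 0.85 for Tnc, 0.82 for Timp1, 0.80 for Thbs4 and 0.74 for Thbs1. Summed mural markers were 1311 to 1475 CPM in Cre hearts with succinate and 1074 to 1238 CPM without it, and 1310.2 to 1434 CPM in floxed hearts with succinate and 1165 to 1411 CPM without it. The activated fibroblast markers, of which 7 of 8 were tested, followed Thbs4 (0.93), Postn (0.90) and Timp1 (0.90). Summed activated fibroblast markers ranged over 159 to 215 CPM in Cre hearts with succinate and 140 to 382 CPM in Cre hearts without it. In floxed hearts they ranged over 125 to 208 CPM with succinate and 178 to 358 CPM without it. These sums lean on the smooth muscle actin gene Acta2, which reached 10391 counts, against at most 2031 for any other marker of the list (Cilp). With succinate in floxed hearts 2 of the 7 fell by edgeR (Meox1 and, at an adjusted p of 0.0495, Comp), where 5.64% of all tested genes did. Of the 10 general fibroblast markers 0 passed, against 13.1% of all tested genes. None of them had an unadjusted p under 0.05, against 28.4% of all tested genes. The defining marker Cthrc1 had at most 7 counts and was at 0 in 3 libraries.

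With succinate in floxed hearts, 6 of 9 macrophage markers fell by edgeR (among them Lyve1, log2 difference -1.11 ± 0.19), where 5.64% of all tested genes did. In Cre hearts 0 of 9 passed and 3 had an unadjusted p under 0.05, against 0.917% and 14.1% of all tested genes. All 9 estimates were negative there too, with a median log2 difference of -0.29 beside -0.72 in floxed hearts. The difference between the genotypes in that list was not tested. Their summed level was 160 to 263 CPM in floxed hearts with succinate, against 275 to 417 CPM without it, so those groups did not overlap, and 193 to 329 CPM in Cre hearts with succinate, against 304 to 379 CPM without it. None of the 9 was at 0 in any library. Cardiomyocyte markers summed to 51457 to 56217 CPM in floxed hearts with succinate, against 40837 to 46494 CPM without it. Of these 8, 2 rose (Myh6 and Ryr2), where 7.48% of all tested genes did. Myh6 alone averaged 24551 ± 2808 CPM with succinate and 15206 ± 1989 CPM without it (SD, n = 4 each). In Cre hearts the markers summed to 44759 to 54368 CPM with succinate, against 34344 to 44705 CPM without it. There 1 of 8 rose (Myh6, log2 difference 0.56 ± 0.13), where 0.917% of all tested genes passed in either direction. Between genotypes given succinate, where the 10 genes all had positive estimates, the same held for 10 of 10 general fibroblast markers (6 with an unadjusted p under 0.05) and 9 of 9 macrophage markers (2). It held for 11 of 12 fibrillar collagen and elastic fibre genes (6) and 19 of 21 other matricellular genes (10). Among activated fibroblast markers 4 of 7 estimates were positive (3), and among mural markers 6 of 8 (0). Endothelial markers had 3 of 8 (0) and cardiomyocyte markers 0 of 8 (0). Over all tested genes 47.7% of estimates were positive and 11.1% had an unadjusted p under 0.05. Summed fibroblast markers were 3275 to 4798 CPM in Cre hearts, against 2548 to 3321 CPM in floxed hearts. That sum leans on Gsn, which reached 105591 counts, against at most 29555 for any other marker of the list (Dcn). Atrial markers summed to 521 to 977 CPM in Cre hearts, against 107 to 156 CPM in floxed hearts. This sum was mostly Nppa, the natriuretic peptide gene that stressed ventricles also express, at 693 ± 246 CPM in Cre hearts and 79.4 ± 12.2 CPM in floxed hearts, while the defining atrial markers Sln, Myl7 and Bmp10 had at most 11 counts in any library. The part of macrophages, fibroblasts, mural cells and tissue composition in the values of the 10 genes was not tested.

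Related genes, like the cell type markers above, were read from lists chosen with earlier results of these data known. Their shares beside all tested genes describe the lists and do not test them. Of 18 tested genes of collagen modification and crosslinking other than the 3 oxidases, 7 fell and 1 rose with succinate in floxed hearts by edgeR, where 5.64% of all tested genes fell and 7.48% rose. Serpinh1, the collagen chaperone HSP47, had 113 ± 14.2 CPM with succinate and 301 ± 52.9 CPM without it (SD, n = 4 each), with a log2 difference of -1.41 ± 0.19 and an adjusted p of 0.00029. The prolyl hydroxylase subunit genes P4ha1 (31.9 ± 3.42 against 91.1 ± 30.9 CPM, log2 difference -1.51 ± 0.25) and P4ha2 (29.8 ± 1.95 against 52.6 ± 11.0 CPM, -0.82 ± 0.14) fell as well. So did the lysyl hydroxylase genes Plod1 (-0.62 ± 0.11) and Plod3 (-0.43 ± 0.10), P4hb (-0.43 ± 0.08), which encodes a disulfide isomerase and the partner subunit of the prolyl hydroxylases, and Tgm2 (-0.34 ± 0.11), a transglutaminase that crosslinks matrix proteins by another chemistry. Fkbp10, a collagen-folding isomerase, rose (43.5 ± 4.79 against 25.3 ± 7.01 CPM, 0.78 ± 0.15).

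The count of 8 became 7 to 9 with each library left out in turn. In Cre hearts 1 of these 18 genes passed with succinate, and 6 had an unadjusted p under 0.05, against 0.917% and 14.1% of all tested genes. Serpinh1 had 121 ± 8.22 CPM with succinate and 234 ± 86.9 CPM without it, with a log2 difference of -0.95 ± 0.19 and an adjusted p of 0.0256 by edgeR. The count there was 0 without any 1 of the 4 Cre libraries given succinate, 3 and 4 without untreated floxed replicate 1 and 2, and 2 without untreated Cre replicate 2 or 4. Averaged over genotypes 6 fell and 1 rose, and the same counts were obtained without replicate 1 of both untreated groups. Between genotypes given succinate, P4hb was higher in Cre hearts (log2 difference 0.37 ± 0.08) and Fkbp10 lower (-0.70 ± 0.15), each with an adjusted p of 0.0328 by edgeR. Neither passed without any 1 of the 4 Cre libraries given succinate or without succinate floxed replicate 1, 2 or 4, and 1 of them passed without succinate floxed replicate 3.

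Of 21 other matricellular genes tested, 5 fell and none rose with succinate in floxed hearts by edgeR, where 5.64% of all tested genes fell and 7.48% rose. They were Emilin1 (28.9 ± 3.05 against 44.6 ± 3.63 CPM, log2 difference -0.63 ± 0.14), an elastic fibre glycoprotein, Ccn3 (3.51 ± 0.534 against 6.50 ± 0.717 CPM, -0.89 ± 0.22), Fbln1 (64.7 ± 8.84 against 87.9 ± 9.31 CPM, -0.44 ± 0.12), Tgfbi (-0.51 ± 0.15), a relative of periostin, and Comp (-1.38 ± 0.44), also known as thrombospondin 5. In Cre hearts none of the 21 passed and 3 had an unadjusted p under 0.05, against 0.917% and 14.1% of all tested genes. Between genotypes given succinate Fbln1 was higher in Cre hearts (97.6 ± 13.9 against 64.7 ± 8.84 CPM, log2 difference 0.59 ± 0.12, adjusted p of 0.0207 by edgeR). That list's count was 0 without succinate floxed replicate 1 or 4 or succinate Cre replicate 3, 2 without untreated floxed replicate 4, and 3 without untreated Cre replicate 1 or 3. The count of 5 in floxed hearts was 2 without floxed replicate 3 without succinate or replicate 1 with it, and 3 without floxed replicate 2 with succinate.

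Of 25 other proteases and inhibitors tested, 3 fell with succinate in floxed hearts, namely Adamts8 (0.469 ± 0.143 against 1.47 ± 0.583 CPM, log2 difference -1.63 ± 0.36), Mmp3 (3.66 ± 0.674 against 10.9 ± 4.85 CPM, -1.58 ± 0.43) and Mmp12 (-2.73 ± 0.87), and Adamts5 rose (0.66 ± 0.20). These 4 of 25 stand beside 13.1% of all tested genes called, a share near that background. None of 12 tested fibrillar collagen and elastic fibre genes passed in either genotype with succinate, and 1 in floxed hearts and 0 in Cre hearts had an unadjusted p under 0.05, against 28.4% and 14.1% of all tested genes. The smallest p in floxed hearts belonged to elastin (Eln), with 39.7 ± 4.31 CPM with succinate and 54.2 ± 17.9 CPM without it (log2 difference -0.45 ± 0.21, adjusted p of 0.167 by edgeR). Without untreated floxed replicate 2, 1 of the 12 passed in floxed hearts. The protease count of 4 in floxed hearts was 1 without untreated floxed replicate 1 or 3 or without floxed replicate 1 or 3 given succinate, and 2 without floxed replicate 2 or 4 given succinate or Cre replicate 2 given succinate.

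Of 22 receptors of these proteins, 3 passed with succinate in floxed hearts, a share near the 13.1% of all tested genes. Cd36, a thrombospondin receptor and fatty acid transporter, rose (log2 difference 0.40 ± 0.12). So did Cacna2d1, a calcium channel subunit to which thrombospondins bind (0.50 ± 0.13), while the heparan sulfate receptor gene Sdc4 fell (-0.70 ± 0.20). None of the 22 passed in Cre hearts, where 4 had an unadjusted p under 0.05, against 14.1% of all tested genes. Of 24 genes of TGF-beta signalling, 4 fell in floxed hearts with succinate (Ski, Acvrl1, Tgfb3 and Smad7) and Tgfbr3 rose (0.37 ± 0.10), 5 in all beside the 13.1% of all tested genes called. In Cre hearts none of the 24 passed and 6 had an unadjusted p under 0.05, against 14.1% of all tested genes. Ski, a repressor of this signalling, had a log2 difference of -0.47 ± 0.09, and Acvrl1, a receptor of endothelial cells, had -0.53 ± 0.13. The receptor count of 3 in floxed hearts was 0 without floxed replicate 1 of either group, 1 without untreated floxed replicate 3, and 5 without untreated Cre replicate 1. The TGF-beta count of 5 was 1 without floxed replicate 1 or 3 given succinate, 3 without untreated floxed replicate 1, 3 or 4, and 8 without untreated Cre replicate 1. In Cre hearts 1 receptor passed without untreated Cre replicate 2 and 1 TGF-beta gene without untreated Cre replicate 4. Without replicate 1 of both untreated groups, the number passing in floxed hearts was 4 of 21 for the matricellular list, 7 of 18 for crosslinking, 5 of 25 for proteases, 0 of 12 for structural genes, 1 of 22 for receptors and 4 of 24 for TGF-beta signalling.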

How the data were processed

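Bulk RNA-seq of 16 mouse hearts, 4 in each of 4 groups, was analysed from 2 deposited tables. Raw read counts per gene were made by the authors before deposit, and the submitters' processing notes name fastp, HISAT2, HTSeq, R 3.2.0, DESeq2 and the genome build GRCm39, with no role or order. FPKM values were also deposited by the authors and are the counts scaled by library and gene length. The RNA kit's strand setting was not given in the sources used here.

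Counts were tested with edgeR 4.0.16 in R 4.3.3 (TMM scaling, filterByExpr with a minimum count of 10, robust quasi-likelihood fit of all 4 groups, Benjamini-Hochberg threshold of 0.05 over 14607 genes), in 7 comparisons. The SE of a log2 difference was derived from that test, as its absolute value divided by the square root of the F statistic. The 95% intervals used a t distribution with 12 degrees of freedom. Both are approximate, and the p-values use edgeR's own degrees of freedom, so intervals and p-values need not match. CPM values were computed from the counts with TMM scaling. FPKM was used to order genes and, with limma 3.58.1 on log2(FPKM + 1), as an alternative. Other alternatives were DESeq2 1.42.0, voom in limma with library quality weights, other filters, scalings and subsets, and each library left out. The test script was checked on simulated data, with changes planted in floxed hearts given succinate alone. Within floxed hearts it recovered 45.6% of 1.5-fold, 86.4% of 2-fold and 97.0% of 3-fold changes. For the interaction it recovered 17.6%, 68.2% and 87.9%. Averaged over genotypes, where the planted change was diluted, it recovered 17.6%, 59.1% and 87.9%. A gene that did not pass may therefore still differ, above all by a small amount.

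The 10 genes and all gene lists were chosen with earlier results of these data known. The text names the 10 genes and up to 3 genes per list that passed in each succinate comparison (smallest p first, or the smallest p in floxed hearts where none passed). It also names the 3 nearest genes by correlation, among genes of plain symbol whose log2 CPM averaged 1 or more. Other genes of the lists were named after their values were seen.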

Additional observations from a re-analysis of the deposited data

Results flagged for a closer look

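In 3 of the 40 groups of 4 values for the 10 genes, 1 library lay far from the other 3 by Dixon's criterion, where chance alone gives about 1 group in 20. Tnc had 8.78 CPM in replicate 1 of the Cre hearts without succinate, against 1.02 to 2.34 CPM in the other libraries of that group. Timp1 had 15.8 CPM in the same library, against 1.39 to 2.40 CPM in the others. Lox had 3.71 CPM in replicate 1 of the Cre hearts given succinate, against 7.25 to 7.87 CPM in the others.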

How the results depend on the processing

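Weighted voom stands for limma voom with sample quality weights, which changes the method and the weight of each library together. Over 28 alternatives, of which 1 (leaving out replicate 1 of both untreated groups) was chosen after seeing the data, 1815 of 1923 values for the 10 genes kept their direction and their side of the threshold, 42 reversed, 44 passed in addition and 22 no longer passed. Where no cause follows from fewer libraries or genes, the cause was not tested. Timp1 and Tnc rest on few counts (13 and 6 in their lowest libraries), which limits their precision.

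Of the 10 genes, the number passing with succinate in floxed hearts (0) was 4 with DESeq2, 2 with weighted voom, 2 with a stricter filter on low counts, 3 with only the groups compared, 1 with a replicate block and 2 without both untreated replicate 1 libraries. Averaged over genotypes (2) it was 4 with DESeq2, 1 with the replicate block (Tnc), and 0 with weighted voom, no filter, each FPKM setting or without both untreated replicate 1 libraries. Between genotypes given succinate (0) it was 1 with DESeq2 and 3 with only the groups compared, and averaged over succinate (0) it was 2 with DESeq2. With each library left out it ranged over 0 to 5 for succinate in floxed hearts, 1 to 4 averaged over genotypes and 0 to 1 for genotype averaged over succinate, and was 0 to 0 in the other 4 comparisons.

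Over all genes, the number passing with succinate in floxed hearts (1917) was 2925 with weighted voom and 2531 with DESeq2. It was 1957 with the stricter filter, 1903 with the replicate block and 1636 with only the groups compared. Without both untreated replicate 1 libraries it was 1383. In Cre hearts (134) it was 483 with DESeq2, 46 with only the groups compared and 24 without both untreated replicate 1 libraries, and averaged over genotypes (2781) it was 1608 without those libraries. Between genotypes without succinate (16) it was 86 with DESeq2, 3 with only the groups compared, 7 with FPKM of mean at least 1 and 2 without both untreated replicate 1 libraries. With succinate (101) it was 307 with DESeq2, 190 with weighted voom, 67 with log2(FPKM + 1) and 51 with FPKM of mean at least 1. Averaged over succinate (274) it was 594, 418 and 176 with DESeq2, weighted voom and FPKM of mean at least 1, and 136 without both untreated replicate 1 libraries. The interaction (0) had 3 with DESeq2. With each library left out the counts ranged over 1018 to 2106 (succinate in floxed hearts), 22 to 183 (in Cre hearts), 2015 to 2899 (averaged), 4 to 23 (genotype without succinate), 44 to 134 (with succinate), 156 to 308 (averaged) and 0 to 0 (interaction). Averaged over genotypes, 1547 of 2781 calls were higher with succinate, against 1108 of 2527 with log2(FPKM + 1) 1110 of 2552 with log2(FPKM + 0.1) and 987 of 2344 with a mean of at least 1 FPKM.

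The labels do not say whether the same replicate number marks a pair. Of 24 same-numbered pairs, 3 had deviations from the group means correlated above 0.1 (range -0.12 to 0.32). The highest values belonged to replicate 1, at 0.32 for the floxed and Cre hearts given succinate and 0.27 for those without it. Pairs of unlike number were not compared, so these values cannot decide whether the numbers mark a litter or batch. With the replicate block Tnc passed with succinate in floxed hearts (log2 difference -1.70, adjusted p = 0.0398 by edgeR) and Timp1 no longer passed in the average (-1.26, adjusted p = 0.131).

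The log2 values that reversed belong to estimates that passed in no setting. For succinate in Cre hearts they were, without both untreated replicate 1 libraries, Fn1 0.0413, Thbs1 0.33, Thbs4 0.0896, Lox 0.0713 and Timp1 0.49; with weighted voom, Thbs1 0.0499 and Lox 0.18; and for Postn -0.0103 with log2(FPKM + 1), with or without the minimum mean, -0.0087 with log2(FPKM + 0.1) and -0.031 with the replicate block. Between genotypes without succinate, weighted voom gave Fn1 -0.076, Tnc -0.19 and Timp1 -0.49, and leaving out both untreated replicate 1 libraries gave Fn1 -0.11 and Timp1 -0.71. For the interaction, Lox was 0.0558 with weighted voom and Tnc -0.0508 with log2(FPKM + 1). Tnc did not reach the minimum mean FPKM.

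With each library left out, some ranges crossed 0. For succinate in Cre hearts they were -0.27 to 0.0414 (Fn1), -0.38 to 0.19 (Postn), -0.60 to 0.33 (Thbs1), -0.47 to 0.0898 (Thbs4), -0.27 to 0.18 (Lox), -0.15 to 0.0157 (Loxl1) and -1.37 to 0.49 (Timp1), and averaged over genotypes -0.0516 to 0.18 (Lox). Between genotypes without succinate they were -0.18 to 0.14 (Fn1), -0.51 to 1.39 (Tnc), -1.14 to 0.45 (Thbs1), -0.0872 to 0.32 (Thbs2) and -0.88 to 1.05 (Timp1). Thbs2 had -0.0642 to 0.16 between genotypes given succinate and -0.0137 to 0.18 averaged over succinate. The interaction had -0.27 to 0.15 for Thbs2 and -0.38 to 1.504 for Tnc.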
